A study of Mus musculus with 7 samples.

Results

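Neuroendocrine genes and the enzymes of serotonin synthesis were described in luminal cells, the secretory epithelial cells of the prostate gland, sorted from mice. The members were 8 genes out of 18193 measured: the granule proteins Chga, Chgb and Scg5, the vesicle protein Syp, the enolase Eno2, the transcription factor Insm1, and Tph1 and Ddc of serotonin synthesis. They were chosen by name, with the difference between the genotypes on these same arrays already known, so that difference is given here as a description and was not tested for them. Affymetrix 430 2.0 arrays had been hybridised with NuGEN-amplified cDNA from 3 wild-type samples (WT, letters A to C) and 4 T-ETV1 samples (letters A to D). The design text speaks of 3 biological replicates, and which T-ETV1 array would be outside that number is not stated, so all 7 were used. The T-ETV1 allele holds a cDNA of human ETV1, an ETS transcription factor, placed behind the mouse's own Tmprss2 promoter. All cells were sorted as lineage negative (CD31, CD45 and Ter119), Sca1 negative and CD49f positive, and the T-ETV1 cells were also GFP positive, so the gate and the genotype cannot be told apart. The sources used here give no strain, age or number of mice behind a sample.

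Neuroendocrine cells are rare, scattered cells of the prostate epithelium that store peptides and amines in dense-core granules and release them by regulated exocytosis. Chromogranins fill these granules. Some neuroendocrine cells make serotonin from tryptophan: Tph1 hydroxylates tryptophan, Ddc removes the carboxyl group, and a vesicular monoamine transporter loads the product into the granule. Small-cell and other neuroendocrine prostate cancers are recognised by the same proteins. In a sorted bulk sample, fewer cells of a type and less RNA per cell cannot be told apart.

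Promoters of 7 of the 8 members were found in the RefSeq promoter table for GRCm38.p6, with a pair of start sites each for Tph1 and Ddc, which made 9 promoters of 250 bases before the start. The cyclic AMP response element (CRE) is a known control element of the chromogranin genes, so its form TGACGTNA and its half-site TGACG were searched on both strands; every CRE match holds a half-site match. The half-site was present in 5 of the 9 promoters, belonging to Scg5, Chga, Chgb and Tph1, against 17.8% of the 32851 promoters in the table. The longer form was present in Chga, as TGACGTAA from 44 to 37 bases before the start, and in Chgb, as TGACGTCA from 72 to 65 bases before it, against 2.52% of all promoters. These 5 promoters are shown because they hold the match, which is in capitals, with CGTCA where it lies on the other strand; a match is not evidence of binding.
Chga, chr12:102554691-102554940, plus strand: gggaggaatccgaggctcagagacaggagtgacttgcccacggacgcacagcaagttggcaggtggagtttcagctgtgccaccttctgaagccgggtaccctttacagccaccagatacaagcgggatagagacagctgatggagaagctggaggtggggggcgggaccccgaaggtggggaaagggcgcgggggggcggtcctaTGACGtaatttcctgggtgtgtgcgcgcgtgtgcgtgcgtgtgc
Chgb, chr2:132781392-132781641, plus strand: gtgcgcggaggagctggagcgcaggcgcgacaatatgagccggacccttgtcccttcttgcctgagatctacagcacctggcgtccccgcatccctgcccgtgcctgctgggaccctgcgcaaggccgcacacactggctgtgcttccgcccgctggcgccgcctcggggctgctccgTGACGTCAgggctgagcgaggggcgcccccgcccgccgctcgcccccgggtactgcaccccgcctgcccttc
Scg5, chr2:113829092-113829341, minus strand: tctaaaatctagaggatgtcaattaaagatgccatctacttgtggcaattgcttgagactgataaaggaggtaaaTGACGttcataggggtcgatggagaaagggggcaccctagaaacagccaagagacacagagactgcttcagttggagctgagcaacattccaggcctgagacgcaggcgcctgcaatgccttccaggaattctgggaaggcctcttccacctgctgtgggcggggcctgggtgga
Tph1, upstream start, chr7:46672538-46672787, minus strand: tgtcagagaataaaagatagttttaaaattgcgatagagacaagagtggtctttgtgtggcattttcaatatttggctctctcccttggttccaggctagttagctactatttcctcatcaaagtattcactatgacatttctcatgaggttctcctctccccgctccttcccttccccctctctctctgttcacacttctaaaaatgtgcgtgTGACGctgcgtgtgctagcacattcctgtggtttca
Tph1, downstream start, chr7:46667378-46667627, minus strand: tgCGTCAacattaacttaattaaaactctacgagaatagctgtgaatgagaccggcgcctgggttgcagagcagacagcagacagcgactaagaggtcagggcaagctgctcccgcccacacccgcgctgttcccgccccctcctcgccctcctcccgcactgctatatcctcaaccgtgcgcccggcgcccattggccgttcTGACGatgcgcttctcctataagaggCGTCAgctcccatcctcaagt

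Other letters were searched on both strands in the same windows. The ETS site form CCGGAA, stricter than the core GGAA, was in 0 of the 9 member promoters and in 12% of all promoters. ETV1 binds sites of this kind, and the shorter core was not counted. The E-box CAGCTG, bound by proneural factors, was in 1 of them, Chga, which held it from 179 to 174 and from 116 to 111 bases before the start, and in 13.0% of all promoters. The parts of the RE1 element bound by the neuronal repressor REST, searched as TTCAGCACC and GGACAGC, were in 0 of the 9 and in 0.301% and 5.28% of all promoters. These counts describe the letters in these windows only.

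Several of the members were dim. The arrays had median intensities from 51.8 to 73.6 in WT and from 48.5 to 62.9 in T-ETV1. Of the 8 genes 3, Syp, Insm1 and Chgb, lay under the array's median on all 7 arrays. Scg5 and Eno2 did so on 3 arrays, Tph1 and Ddc on 4 and Chga on 6. For Syp, Insm1 and Ddc, which had a pair of probe sets each out of 11 in all, the one with the higher mean stood for the gene. Values were compared as log2(intensity + 16), which understates the change of dim genes, and every difference below is T-ETV1 minus WT on that scale. The sorted cells carried luminal markers at high intensity: Pbsn, the prostate secretory protein probasin, lay between 11930 and 12447 and the keratin Krt18 between 9923 and 11187 over all arrays.

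Of the 8 members 7 had a lower mean in T-ETV1 and 1, Ddc, a higher one. The median difference of the members was -0.668, beside -0.0263 over all genes, of which 55.6% were lower. In 3 members, Tph1, Syp and Insm1, every T-ETV1 array lay below every WT array, which was the case for 3.9% of all genes. A difference of -1 or lower was found in 3 members, Eno2, Scg5 and again Tph1, as did 4.67% of all genes, and Ddc alone had 1 or higher, as did 0.715%. Since these values chose the members, nothing is read from these shares. Across all 18193 genes, 0 (0%) passed limma's test at a Benjamini-Hochberg adjusted p under 0.05, while 1113 (6.12%) had an unadjusted p under 0.05.

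**Figure D1:**
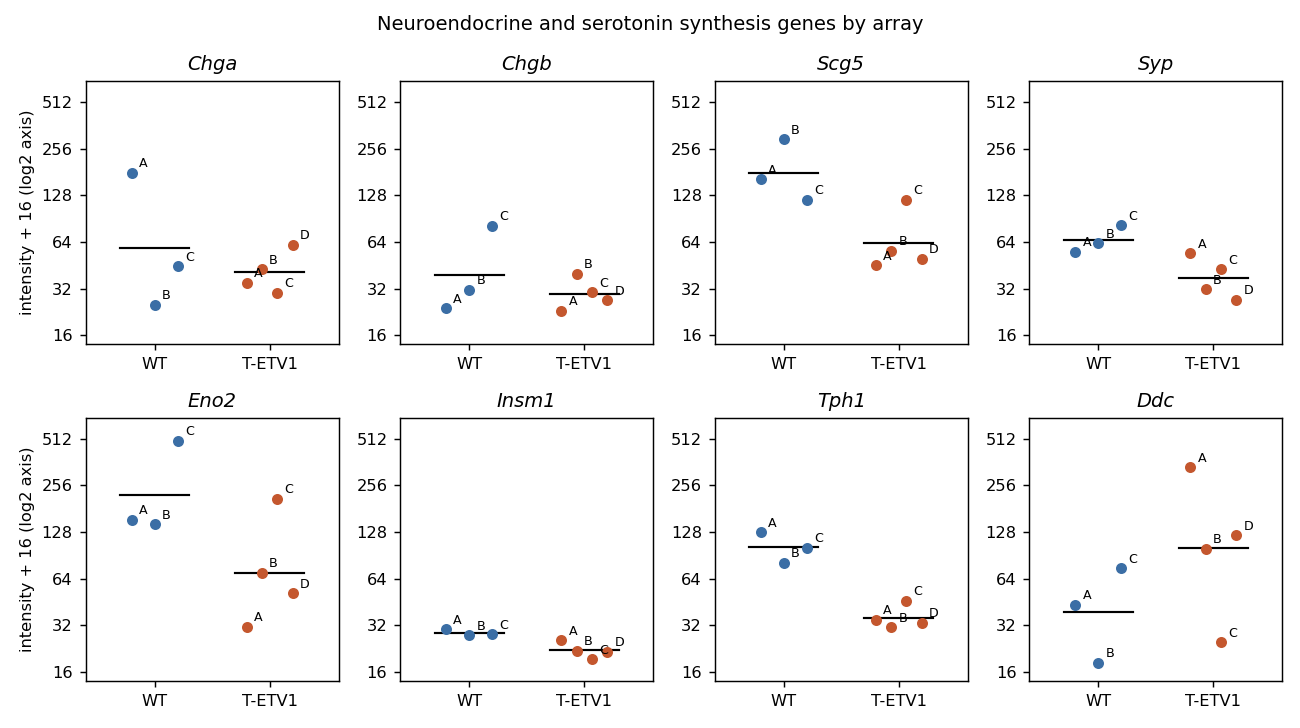
Intensity + 16 of each of the 8 genes (log2 axis) in the 3 WT arrays (blue) and 4 T-ETV1 arrays (orange), with the replicate letter beside each point and the group mean of log2 values as a bar. The groups are apart in Syp, Insm1 and Tph1, Scg5 and Eno2 overlap through array T-ETV1 C, and Ddc runs the other way.

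In the chromogranins a single WT array stood above the rest, and the WT arrays differed among themselves by more than the genotypes did. Chga, chromogranin A, the major soluble protein of dense-core granules, had intensities of 163, 9.2 and 28.8 in the WT arrays A to C and of 19.0, 26.6, 14.1 and 45.3 in the T-ETV1 arrays A to D. WT A alone was high, WT B was the lowest of all arrays, and the groups overlapped. The WT log2 values averaged 5.88 ± 1.45 (SD, n = 3) and the T-ETV1 values 5.35 ± 0.44 (SD, n = 4), which left a difference of -0.53 ± 0.65 (SE). Without WT A it turned to 0.276.

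Chgb, chromogranin B, had intensities of 7.9, 15.5 and 65.3 in the WT arrays A to C and of 7.1, 24.0, 14.4 and 11.0 in the T-ETV1 arrays A to D. Here WT C alone was high and the other 6 arrays were alike in both genotypes. The difference was -0.42 ± 0.43 (SE), and it turned to 0.105 without WT C. The array high in Chga was thus not the one high in Chgb, and over the 7 arrays the pair had a Pearson r of -0.22.

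Scg5 encodes 7B2, a granule protein that binds prohormone convertase 2 and is needed for its activity. Its intensity was 147, 278 and 104 in the WT arrays A to C and 29.4, 40.2, 104 and 33.9 in the T-ETV1 arrays A to D. The A, B and D arrays of T-ETV1 were all below the WT arrays, while the pair of C arrays had nearly the same value and joined the groups. The log2 values averaged 7.48 ± 0.66 in WT (SD, n = 3) and 5.97 ± 0.64 in T-ETV1 (SD, n = 4), a difference of -1.52 ± 0.44 (SE). Leaving out T-ETV1 C gave -1.83 and leaving out WT B gave -1.16, the ends of the range over single arrays.

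Syp encodes synaptophysin, the membrane protein of small vesicles used to stain neuroendocrine tumours. Its intensity was 39.3, 46.6 and 66.0 in the WT arrays A to C and 38.1, 15.7, 26.6 and 11.2 in the T-ETV1 arrays A to D. The groups did not overlap, but T-ETV1 A lay just under WT A, with a difference of -0.03 between these arrays against -0.98 between the B arrays and -0.94 between the C arrays. The mean difference was -0.81 ± 0.27 (SE). The other probe set of Syp was at or under 16 on all 7 arrays, with overlapping groups and a difference of -0.06.

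Eno2, the neuron-specific enolase of glycolysis, had the lowest difference of the members, -1.67 ± 0.73 (SE), and a wide spread. Its intensity was 138, 128 and 480 in the WT arrays A to C and 15.4, 53.8, 194 and 35.4 in the T-ETV1 arrays A to D. The C array was the highest of each genotype, and T-ETV1 C lay above WT A and WT B. The difference was -1.09 without WT C and -2.2 without T-ETV1 C.

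Insm1, a zinc-finger factor that drives neuroendocrine differentiation, was close to the bottom of the arrays. Its intensity was 14.2, 11.7 and 12.1 in the WT arrays A to C and 9.6, 5.9, 3.4 and 5.6 in the T-ETV1 arrays A to D, at or under 16 on all 7. The groups did not overlap, and the difference of -0.38 ± 0.12 (SE) on the log2 scale was small because 16 was added to every value: with 1 in place of 16 it was -1.01, and with 64 it was -0.129. The other probe set, also at or under 16 on every array, had overlapping groups and a difference of -0.19. No detection call was used here, so whether Insm1 was above background was not tested.

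The 2 enzymes of serotonin synthesis went in opposite directions. Tph1, tryptophan hydroxylase 1, the rate-limiting enzyme of serotonin synthesis outside the brain, had the clearest separation of the members. Its intensity was 112, 65.0 and 85.7 in the WT arrays A to C and 18.8, 15.2, 30 and 17.2 in the T-ETV1 arrays A to D. Every WT array was above every T-ETV1 array, and the mean of the intensities was 4.31 times higher in WT. On the log2 scale WT averaged 6.67 ± 0.33 (SD, n = 3) and T-ETV1 5.16 ± 0.25 (SD, n = 4), a difference of -1.50 ± 0.20 (SE) that stayed between -1.67 and -1.34 when each array was left out in turn. The differences between arrays of the same letter were -1.88 for A, -1.38 for B and -1.15 for C.

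Ddc, the aromatic amino acid decarboxylase that makes serotonin and dopamine from their precursors, had intensities of 27.4, 2.4 and 59.0 in the WT arrays A to C. The T-ETV1 arrays A to D had 320, 83.6, 8.8 and 106. T-ETV1 A, B and D were above all WT arrays and T-ETV1 C was below WT A and WT C, so the groups overlapped. The difference was 1.36 ± 0.90 (SE), ranging from 0.778, when T-ETV1 A was left out, to 2.03, when T-ETV1 C was. By letter it was 2.95 for A and 2.44 for B but -1.60 for C. The other probe set of Ddc lay at or under 16 on all arrays and differed by 0.04.

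**Figure D2:**
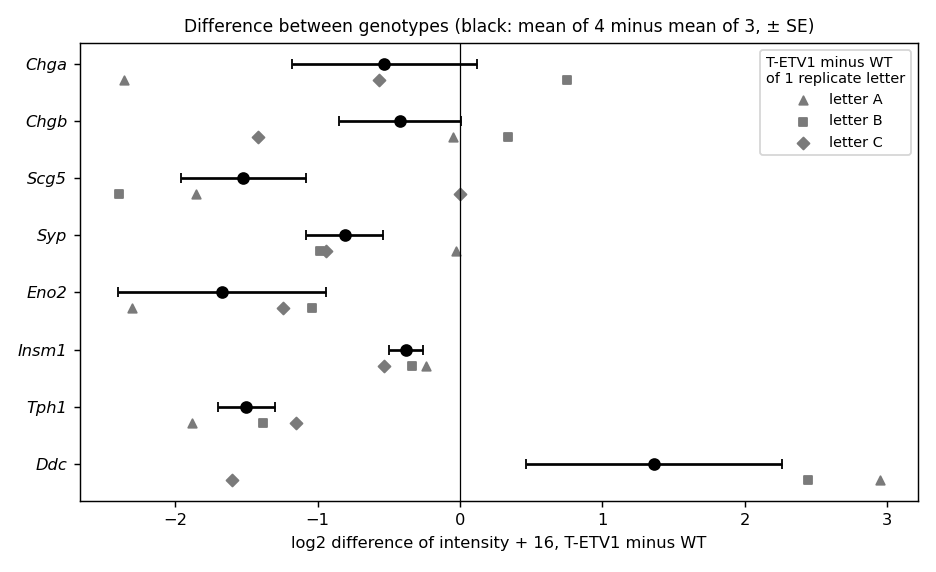
Log2 difference of intensity + 16, T-ETV1 minus WT, for each gene as mean ± SE (black, 4 against 3 arrays), with the differences within the letters A, B and C (grey symbols). All 3 letters lie below 0 in Syp, Eno2, Insm1 and Tph1, and Ddc lies at 2.95 and 2.44 for A and B but at -1.60 for C.

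In Syp, Eno2, Insm1 and Tph1 the T-ETV1 array was the lower in each of the 3 letter pairs, though by only -0.03 between the A arrays of Syp. The share of all genes lower in each pair was not computed, so nothing is read from this. The C arrays stood out in several members, but not in the same direction in both genotypes. Both were the highest of their genotype in Eno2, and T-ETV1 C, unlike the other T-ETV1 arrays, reached WT values in Scg5, Eno2 and Ddc. In Scg5 WT C was the lowest WT array and T-ETV1 C the highest T-ETV1 array, each at 104. In Ddc WT C was the highest WT array, at 59.0, and T-ETV1 C the lowest T-ETV1 array, at 8.8. Without both C arrays the members lower with groups apart numbered 5, Scg5 and Eno2 now among them, beside 15.1% of all genes, and Ddc was higher with groups apart, beside 10.9%.

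**Figure D3:**
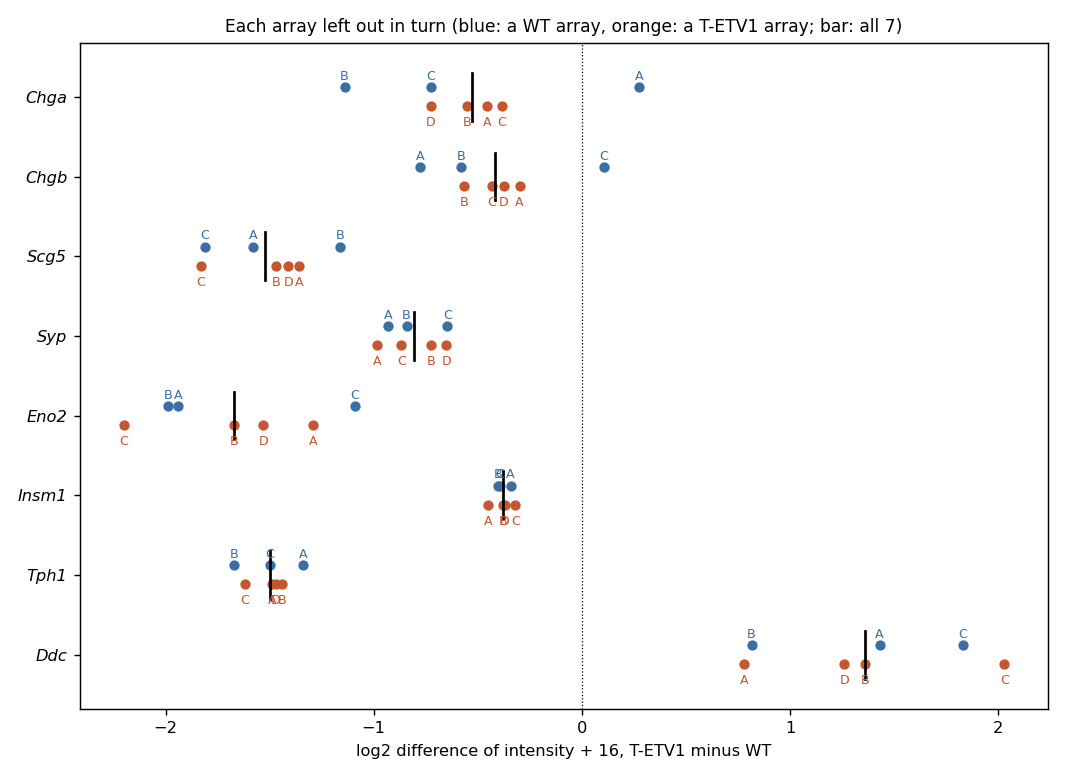
Log2 difference, T-ETV1 minus WT, of each gene with all 7 arrays (bar) and with each array left out (points, blue for a WT array and orange for a T-ETV1 array, lettered by the array). Tph1 and Insm1 hardly move, Chga crosses 0 without WT A, and Chgb crosses 0 without WT C.

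The members did not share a single pattern over the arrays. Pearson r between members over the 7 arrays, which share the genotype difference and the array scaling, was highest for Scg5 and Tph1 (0.80), Insm1 and Tph1 (0.79) and Syp and Tph1 (0.77). It was lowest for Scg5 and Ddc (-0.88) and for Eno2 and Ddc (-0.65). Each array except T-ETV1 B, C and D was the highest for some member: WT A for Chga, Insm1 and Tph1, WT B for Scg5, WT C for Syp, Eno2 and Chgb, and T-ETV1 A for Ddc.

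The genes with the pattern most like Tph1, by Pearson r over the 7 arrays among 8845 named genes above the median level, were Polr3gl (0.973), Sem1 (0.970), Tgds (0.968), Apaf1 (0.963) and Gpx4 (0.956). In each of these the T-ETV1 arrays were all below the WT arrays, by -2.17 ± 0.22 (SE) in Polr3gl and by -0.10 ± 0.09 in Gpx4. For Scg5 they were Ftsj3 (0.960), Abce1 (0.943), Pttg1 (0.939), Eif6 (0.938) and Mief2 (0.935). Pttg1, securin, had the widest range of these, at 3206 to 4456 in WT, 2850 in T-ETV1 C and 439 to 651 in the other T-ETV1 arrays. Members were left out of these lists and ranked in the order of all genes, bright and dim, by likeness to Tph1. Of 18192 genes Scg5 was at rank 472, Insm1 at 523, Syp at 696 and Eno2 at 934. Chga was at rank 4319, Chgb at 6300 and Ddc at 16351. The members were chosen with the genotype difference known, so nothing is read from these ranks.

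Of the genes that work beside the members, 71 were measured out of 77 listed in 6 groups. None passed limma over all genes (smallest adjusted p = 0.581), and 6 were lower and 0 higher at an unadjusted p under 0.05, beside 4.12% and 2% of all genes. The median difference was -0.12. In 5 of them (7.04%) every T-ETV1 array was below every WT array, beside 3.9% of all genes, and in 0 every T-ETV1 array was above, beside 2.42%.

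Along the serotonin pathway itself 13 genes were measured, 9 lower and 4 higher, and 0 passed. Slc18a1, the vesicular monoamine transporter VMAT1 of endocrine cells, was bright. Its intensity was 2714, 2443 and 2289 in the WT arrays A to C and 1852, 1365, 1626 and 1572 in the T-ETV1 arrays A to D. The groups did not overlap and the difference was -0.63 ± 0.13 (SE; limma adjusted p = 0.581), while its other 2 probe sets differed by 0.04 and 0.31, in the opposite direction. Slc6a4, the serotonin uptake transporter, had 50 to 371 in WT and 10 to 189 in T-ETV1, with both C arrays the highest of their genotype (-1.37 ± 0.86, adjusted p = 0.876). Gch1, which makes the first intermediate of the cofactor tetrahydrobiopterin, had 74.2 to 219 in WT and 30.1 to 159 in T-ETV1 (-1.05 ± 0.55, adjusted p = 0.848). Aldh2, an aldehyde dehydrogenase that acts after the monoamine oxidases, was at 5608 to 6168 on all arrays (-0.01 ± 0.09, adjusted p = 0.994). Its other 4 probe sets differed by -0.7 to 0.05, 2 of them in the opposite direction. Tph2, the brain isoform of tryptophan hydroxylase, was at or under 16 on all arrays.

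Serotonin receptors were mostly dim: 11 of 13 lay under the array's median on all arrays, and 8 were lower and 5 higher. Htr2b, a receptor coupled to Gq, was at 156 to 283 in WT and 89.1 to 331 in T-ETV1, and overlapped (-0.36 ± 0.44, limma adjusted p = 0.936). Htr6 had groups apart, but at 6.9 to 10.6 in WT and 2.2 to 5.2 in T-ETV1, at the bottom of the arrays (-0.27 ± 0.11, adjusted p = 0.804).

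Genes of granules and exocytosis had median differences near that of all genes, and 0 passed. Of 11 genes of dense-core granule cargo and prohormone processing 8 were lower and 3 higher, with a median of -0.11, and 0 had groups apart. In this list 7 genes lay under the array's median on all arrays, and the scale used understates the change of dim genes. Pam, which amidates peptides, was at 3359 to 4081 in WT and 3431 to 3922 in T-ETV1 (0.00 ± 0.11), and Ptprn2, a granule membrane phosphatase family protein, was at 189 to 458 in WT and 269 to 528 in T-ETV1 (0.43 ± 0.36). Of 11 genes of synaptic vesicles and exocytosis 7 were lower and 4 higher, with a median of -0.08 and 0 with groups apart. Here 5 genes lay under the array's median on all arrays. Vamp2, a vesicle SNARE, was at 2861 to 3625 over all arrays (-0.10 ± 0.11), and the calcium sensor Syt7 at 737 to 953 in WT and 743 to 1194 in T-ETV1 (0.25 ± 0.20).

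Among 13 transcription and splicing regulators of the neuroendocrine programme 10 were lower and 3 higher, and 0 passed. Srrm4, a splicing factor of neural microexons, had 242, 126 and 350 in the WT arrays A to C and 35.1, 15.2, 125 and 62.1 in the T-ETV1 arrays A to D. The groups were apart by a narrow margin, between WT B and T-ETV1 C, and the difference was -1.88 ± 0.56 (SE; limma adjusted p = 0.737). Its other 2 probe sets differed by -0.28 and -0.06. Foxa2, a forkhead factor of neuroendocrine prostate tumours, had groups apart at 12.8 to 21.9 in WT and 1.0 to 7.4 in T-ETV1 (-0.73 ± 0.17, adjusted p = 0.628). Prox1, also the master factor of lymphatic endothelium, was at 493 to 597 in WT, at 751 in T-ETV1 C and at 5.9 to 42.9 in the other T-ETV1 arrays (-3.02 ± 1.23, adjusted p = 0.804). Its other 2 probe sets differed by only -0.33 and -0.17. Without T-ETV1 C, the only T-ETV1 array where it was high, Prox1 passed over all genes by the probe set that stood for it. It was the only gene of these groups to do so, among 27 genes that passed in that setting. Leaving out that array removes the spread of Prox1, so nothing is read from this. Without both C arrays Prox1 did not pass. Rest, the repressor of neuronal genes, was at 1337 to 2332 in WT and 1274 to 1833 in T-ETV1 (-0.15 ± 0.22), and 2 of its other 3 probe sets had the opposite sign.

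Of 10 peptides and surface proteins 7 were lower and 3 higher. Grp, gastrin-releasing peptide, was at 63.3, 275 and 545 in the WT arrays A to C and at 4.4, 30.9, 76.8 and 3.6 in the T-ETV1 arrays A to D. The groups overlapped only through T-ETV1 C and WT A (-2.69 ± 0.82, limma adjusted p = 0.741). Npy, neuropeptide Y, was at 208 in WT C and between 6.0 and 29.6 on the other arrays (-1.40 ± 0.67, adjusted p = 0.835). Ncam1, a neural adhesion molecule, was at 2164 to 4034 in WT and 1542 to 2839 in T-ETV1 (-0.23 ± 0.30, adjusted p = 0.944). Its other 6 probe sets differed by -0.92 to 0.7, 1 of them in the opposite direction.

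Markers of other cell types differed between the arrays too. The summed intensity of 10 endothelial genes was 1869 to 5789 in WT and 619 to 2736 in T-ETV1, and all 10 were lower in T-ETV1. The sum of 8 smooth muscle and pericyte genes, all lower, was 681 to 5831 in WT and 165 to 995 in T-ETV1, that of 8 fibroblast genes, all lower, 3828 to 23286 and 1885 to 8665, and that of 6 basal genes, all lower, 7456 to 20529 and 3333 to 18147. The leukocyte sum, with 8 of 10 genes lower, was 7017 to 21184 in WT and 5907 to 15522 in T-ETV1. Cd52 made up most of the leukocyte sum outside the C arrays and was at 5751 to 9153 over all arrays (0.03 ± 0.18). Lyz2 was at 5163 in WT C and 4962 in T-ETV1 C, against 21.1 to 147 on the other arrays. In the basal sum Dst, at 3007 to 4312 over all arrays (-0.05 ± 0.16), made up most of T-ETV1 A, B and D. The sort selected against CD31 and CD45, markers of endothelial cells and leukocytes. No gene of these 5 lists was at or under 16 on all arrays. WT C was the highest array in all 5 sums and T-ETV1 C the highest T-ETV1 array, as in Eno2, and the part of these cells in the members' differences was not tested. The sum of 8 luminal genes was 59960 to 62472 in WT and 58199 to 64354 in T-ETV1.

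**Figure D4:**
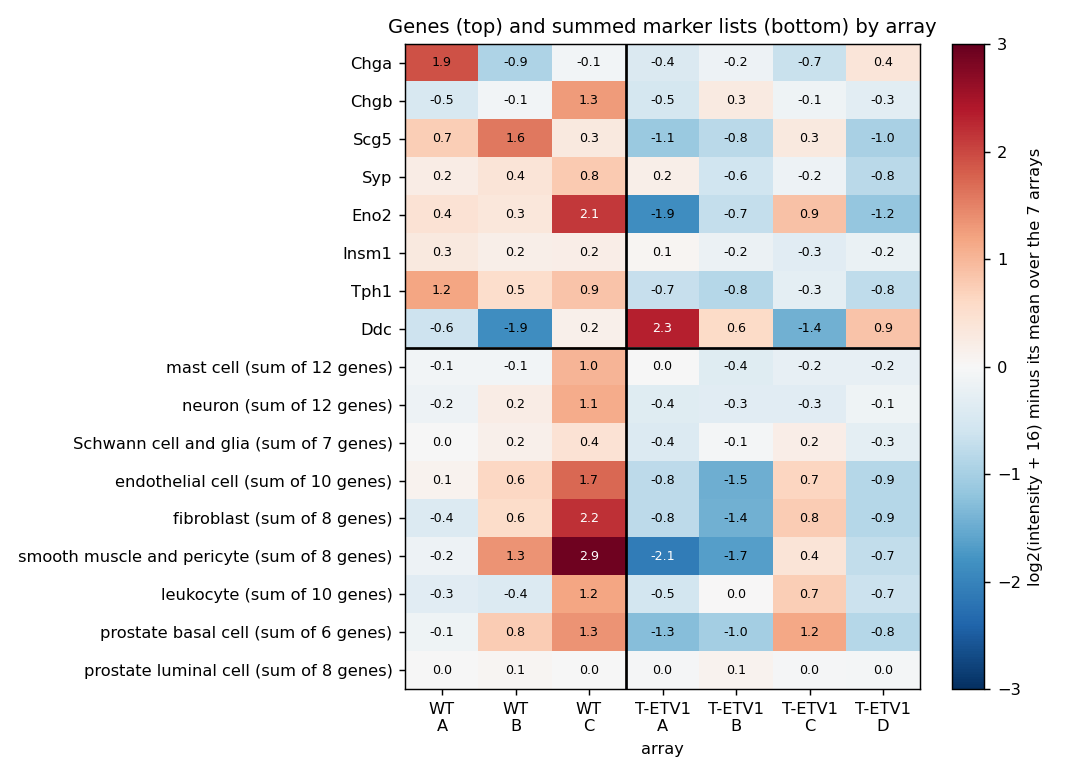
Log2(intensity + 16) minus its mean over the 7 arrays for the 8 genes (upper block) and for the summed intensity of each marker list (lower block), red above and blue below the mean. WT C is the highest array in the other-cell lists and in Eno2, Chgb and Syp, but not in Tph1, Scg5, Chga or Insm1.

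Nerve and mast cells, which also express several members, were read from their own lists. Of 12 measured neuronal genes 9 were lower and 3 higher, with a sum of 196 to 498 in WT and 168 to 200 in T-ETV1, 9 under the array's median on all arrays, and Elavl4 at or under 16 on all. Stmn2, a neuronal tubulin regulator, was at 54.4 to 171 in WT and 17.8 to 31.8 in T-ETV1, with groups apart (-1.32 ± 0.36, limma adjusted p = 0.687). Of 7 Schwann cell and glial genes 6 were lower and 1 higher, with a sum of 1768 to 2396 in WT and 1330 to 2030 in T-ETV1. Mbp, at 1301 to 1825 over all arrays (-0.08 ± 0.16), made up most of that sum on each array. The sum therefore mostly follows Mbp and hides larger differences in dimmer genes of the list. Sox10, the defining factor of these cells, was at 105 to 191 in WT, 207 in T-ETV1 C and 4.1 to 5.2 in the other T-ETV1 arrays. Scg5 was likewise higher in T-ETV1 C than in the others. The part of nerve cells in the members' differences was not tested.

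Tph1 is also the hydroxylase of mast cells. All 12 mast cell genes were lower in T-ETV1, with a sum of 6134 to 13323 in WT and 5099 to 6485 in T-ETV1, of which Gata2 made up most outside WT C (5020 to 6394 on all arrays), and Mcpt1 was at or under 16 on all. Tpsb2, a mast cell tryptase, was at 2307 in WT C but at 17.6 in WT A and 12.7 in WT B, against 17.8 to 27.9 in T-ETV1, and Hdc, the histamine-forming enzyme, was at 221 in WT C, 7.8 in WT A and 16.4 in WT B, against 6.0 to 22.5 in T-ETV1. Tph1 was at 112 in WT A and at 85.7 in WT C. Kit, the stem cell factor receptor of mast cells, had groups apart, at 41.7 to 92.2 in WT and 4.3 to 18.8 in T-ETV1 (-1.64 ± 0.27, limma adjusted p = 0.581). The part of mast cells in the difference of Tph1 was not tested.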

How the data were processed

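Intensities on a linear scale for 45037 probe sets on 7 arrays were taken as deposited; how the authors summarised and scaled them is not given in the sources used here. The array number limits precision. Of the probe sets 34945 had 1 symbol in the platform annotation, 932 several and 9160 none; 34741 matched a GRCm38.p6 gene table by Entrez ID. Of several probe sets the one with the highest mean stood for a gene, which left 18193 genes. These were fitted on log2(intensity + 16) with lmFit and eBayes of limma 3.58.1 under R 4.3.3 (T-ETV1 minus WT, two-sided). Benjamini-Hochberg adjustment was used with a threshold of 0.05. The fit was also run on simulated data with independent noise on each array. Those data lacked the likeness between arrays of the same letter given below, so nothing is read from them here. Members and gene lists were chosen with earlier results of these data known. Named were all members, up to 3 genes of smallest p and the highest gene of each pathway list, the 2 highest of each marker list with Kit and Hdc, and the 5 genes most like Tph1 and Scg5, without predicted genes; for space some are given as counts. Deviations from the group means correlated at 0.281, 0.217 and 0.356 for the letters A, B and C, over the limit of 0.1. Of the arrays with unlike letters, WT A and T-ETV1 D were also over it, at 0.187. By this limit the letters, taken from the labels, count as pairing the arrays. The fit reported is the planned one without the block, and the blocked fit is an alternative. Every SE and adjusted p given above therefore leaves this pairing out of account. Alternatives were other scalings, pseudocounts of 1 and 64, leaving out the lowest 30% of genes, other probe set rules, a trended variance, the replicate block and leaving out arrays.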

Additional observations from a re-analysis of the deposited data

Results flagged for a closer look

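Snap25, a SNARE protein of regulated exocytosis, had an intensity of 96.5 in T-ETV1 D against 2.8 to 7.8 in the other 3 T-ETV1 arrays, a gap that took up more of the range of the 4 arrays than Dixon's critical value of 0.829 allows. In WT it was 12, 63.3 and 154 in the arrays A, B and C. It was the only result so marked among 35 probe sets and genes examined, where chance marks about 1 in 20.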

How the results depend on the processing

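The median difference of the members (-0.668) lay between -0.99 and -0.645 when each array was left out, and was -0.688 with the replicate block. It was -0.386 with a pseudocount of 64, -0.481 with probe sets averaged per gene, -1.11 with a pseudocount of 1 and -1.16 without the lowest 30% of genes, which left 6 members. Median centring moved the median over all genes from -0.0263 to 0.11 and quantile normalization to 0.0193, and 7 members were lower under both. The count of genes called ranged from 0 to 27 over the single arrays left out (7 without WT C, 27 without T-ETV1 C) and was 68 without both C arrays, none of them a member; it was 0 under the other settings run, the block among them. The count of other pathway genes called ranged from 0 to 1 (Prox1) over the single arrays left out and was 1 (Nts) without both. Members lower with groups apart, an alternative added after seeing the data, numbered 3 to 5 over the single arrays left out and 5 without both C arrays, while the share over all genes went from 3.9% to between 5.45% and 10.8%, and to 15.1%. Over the single arrays left out Chga ranged from -1.14 to 0.276 (without WT A) and Chgb from -0.779 to 0.105 (without WT C), with 0.0908 for Chgb without both C arrays; the cause was not tested. Of 126 alternative values of single members 116 moved by less than the spread between replicates, but many of them could not move. A trended variance or leaving out the lowest genes does not change a single member's difference, nor does averaging where a gene has 1 probe set. The block gave the same member differences as leaving out T-ETV1 D. The count of 116 therefore says little about stability. The low signal of Insm1, Chgb and Syp limits what their differences show.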

Other observations

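Probe sets that did not stand for their gene were looked at after the values were seen, for groups that did not overlap, which 4 of 56 did. Over all genes, by the probe set that stood for each, groups were apart with T-ETV1 lower in 3.9% and higher in 2.42%. Nothing is read from the count of 4. Stx1a, a SNARE of the plasma membrane, had a probe set at 87.8, 79.1 and 118 in the WT arrays A to C and at 7.7, 19.5, 18.7 and 11.6 in the T-ETV1 arrays A to D, a log2 difference of -1.88. The probe set that stood for Stx1a was at 39.4 to 42.4 in WT and 24.7 to 58.6 in T-ETV1, a difference of -0.04, so the 2 probe sets disagree. Syt1, a calcium sensor of vesicle release, had a dim probe set at 7.2 to 8.9 in WT and 13.5 to 23.9 in T-ETV1, a difference of 0.54, while the probe set that stood for it overlapped, with 0.12. Another Syt1 probe set, at 2.5 to 5.1 in WT and 5.1 to 7.5 in T-ETV1, differed by 0.19. Htr4, a serotonin receptor, had a probe set at 4.4 to 4.6 in WT and 2.1 to 4.2 in T-ETV1, a difference of -0.10 against 0.54 in the probe set that stood for it.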
